A study of Mus musculus with 4 samples.

Results

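The cells described here are mouse peritoneal B cells whose receptor joins the heavy chain V gene IGHV11-2 to the light chain V gene IGKV14-126. They were taken from the receptor sequences, as cell barcodes that held 1 heavy and 1 light contig, no more, with these V genes, so no expression value was used to choose them. The rule found 755 of 9761 paired barcodes, 428 of 6536 in the CD library and 327 of 3225 in the HFD library. Wild-type mice were kept on normal chow (CD) or a high-fat diet (HFD) from 4 weeks of age for 3 months. Peritoneal cells were washed out with serum-free RPMI 1640, and cells positive for CD45, a protein of all white blood cells, were sorted and loaded for droplet sequencing. For either diet there is 1 library of each kind (expression and receptors), and the number of mice behind it is not stated. The labels contradict themselves on the CD diet, which titles and design call chow and a treatment field calls high-fat; the titles were followed.

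B-1 cells are long-lived B lymphocytes that arise mainly before and around birth, renew themselves in the body cavities, and secrete natural IgM without immunisation. Their receptors are dominated by a few pairs of V genes that recur between animals, and many of these bind self molecules exposed on ageing or dying cells. IGHV11-2 with IGKV14-126 and IGHV12-3 with IGKV4-91 are the best known pairs against phosphatidylcholine, a lipid of cell membranes and of oxidised lipoproteins. The part of a receptor that touches its antigen most closely is the third complementarity-determining region (CDR3), which is built where V, D and J segments are joined and so differs most between B cells. IGHV12-3/IGKV4-91 barcodes (414 in both libraries) and the other paired barcodes (9006, which include the IGHV12-3/IGKV4-91 barcodes and further B-1 cells) serve below as the points of comparison.

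The heavy chain CDR3s are printed because they were the most varied part of these receptors, with 28 nucleotide sequences against 4 for the light chain CDR3. The 8 below were the most frequent and are given from the conserved cysteine codon to the conserved tryptophan codon, as the deposited contig annotation has them. All CDR3s of the 755 barcodes shared their first 5 and last 19 bases. Capitals mark the 15 to 18 bases between, which carry the junction.
heavy CDR3 a: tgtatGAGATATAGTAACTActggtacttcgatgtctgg
heavy CDR3 b: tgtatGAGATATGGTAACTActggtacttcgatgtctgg
heavy CDR3 c: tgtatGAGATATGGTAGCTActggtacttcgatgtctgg
heavy CDR3 d: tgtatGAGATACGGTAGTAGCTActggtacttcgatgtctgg
heavy CDR3 e: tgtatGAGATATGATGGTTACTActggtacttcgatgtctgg
heavy CDR3 f: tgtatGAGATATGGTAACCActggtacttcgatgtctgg
heavy CDR3 g: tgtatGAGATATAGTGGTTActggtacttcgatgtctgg
heavy CDR3 h: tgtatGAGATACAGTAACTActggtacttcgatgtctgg
Sequence a was the commonest, with 209 CD and 101 HFD barcodes. Counted from 1 at the first base of the cysteine codon, sequence b differed from it by A13G and was carried by 72 CD and 87 HFD barcodes. Sequence c differed from a by A13G and A17G and was carried by 6 CD and 66 HFD barcodes. Sequence f differed by A13G and T19C (26 CD, 0 HFD barcodes), and sequence g by A16G, A17G and C18T (22 CD, 0 HFD). Sequence h, with T12C as its single difference, encodes the same amino acids as a and was carried by 18 CD and 3 HFD barcodes. Sequences d (23 CD, 13 HFD) and e (26 CD, 0 HFD) are 42 bases long, 1 codon more than the other 6.

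The light chain CDR3 was far more uniform and is printed to show that the joining segment alone distinguished its forms. There was 1 sequence for each J gene, all 33 bases long, and capitals mark the 4 bases in which they differ.
light CDR3 with IGKJ1: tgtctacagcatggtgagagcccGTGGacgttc
light CDR3 with IGKJ2: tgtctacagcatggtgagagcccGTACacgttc
light CDR3 with IGKJ4: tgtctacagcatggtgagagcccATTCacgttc
light CDR3 with IGKJ5: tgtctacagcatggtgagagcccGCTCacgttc
In the 755 barcodes these 4 sequences occurred in 16, 498, 210 and 31 cells, in the order printed.

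The receptor took a larger share of the paired barcodes in the HFD library. It was 6.55% in CD (exact Clopper-Pearson 95% interval 5.96 to 7.18%) and 10.1% in HFD (9.12 to 11.2%), a difference of 3.59 percentage points (Newcombe interval 2.42 to 4.82). The IGHV12-3/IGKV4-91 pair took 3.38% in CD and 5.98% in HFD. These intervals, like all those that follow, cover counting error only. The diets could not be compared by a test, since each has 1 library, and diet cannot be told apart from the animals, the sort or the library. Receptor contigs were also deeper in HFD, where members had a median of 30 UMIs (unique molecular identifiers, which count original RNA molecules) on the heavy contig against 20 in CD, and 98 against 70.5 on the light contig. The part that depth plays in the share was not tested.

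The pairing of the 2 V genes was nearly exclusive in both directions. Of the paired barcodes with IGHV11-2, 428 of 440 (97.3%) in CD and 327 of 328 (99.7%) in HFD carried IGKV14-126. The 12 other CD barcodes carried IGKV1-135 (9), IGKV8-30 (2) and IGKV3-5 (1), and the 1 other HFD barcode carried IGKV1-117. Read from the light chain, 95.7% of 447 IGKV14-126 barcodes in CD and 96.7% of 338 in HFD had IGHV11-2. For the other pair, 87.7% of IGHV12-3 barcodes in CD and 83.9% in HFD had IGKV4-91.

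Outside the V genes the receptors were almost as uniform. All 755 used IGHJ1, whereas IGHV12-3/IGKV4-91 barcodes used IGHJ1 in 84.6% (CD) and 86.5% (HFD), with IGHJ2 and IGHJ3 making up the rest. The constant gene was IGHM, which encodes IgM, in 427 of 428 CD and 327 of 327 HFD barcodes, and was not listed for the remaining 1. No member had IGHD, IGHG or IGHA, which allows a share of up to 0.858% in CD and 1.12% in HFD by the exact interval. Among the other paired barcodes 3.96% in CD and 1.86% in HFD had an IGHG or IGHA contig. The heavy CDR3 was 39 bases (13 amino acids) long in 366 CD (85.5%) and 299 HFD (91.4%) members and 42 bases in all others, while 14.4% of the other paired barcodes in CD and 12.5% in HFD had 39 bases. In the IGHV12-3/IGKV4-91 barcodes 42 bases was the length in 221 of 221 (CD) and 189 of 193 (HFD). A D gene was assigned to few junctions, 8.18% in CD and 1.83% in HFD. Those assigned were IGHD2-3 (26 CD, 5 HFD) and IGHD4-1 (9 CD, 1 HFD).

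Every member carried the same V segment sequence. The 285 deposited heavy chain bases before the CDR3 were identical in all 755, as were the 261 light chain bases. This also held for every IGHV11-2 contig (768 of 768) and every IGKV14-126 contig (785 of 785) among paired barcodes. IGHV12-3/IGKV4-91 barcodes were likewise identical among themselves. In paired barcodes with neither pair, 84.4% of heavy V segments in CD and 96.0% in HFD equalled the commonest sequence of their V gene, and 28.3% (CD) and 38% (HFD) did among those with an IGHG or IGHA contig. Of 73 heavy V genes with at least 20 contigs, 6 had no variant, and the median share of the commonest sequence was 91.2%. A germline reference was not used here, so identity is among contigs and not to the germline.

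Diversity sat in few junctions, and several recurred in both libraries. Taking a clonotype as 1 heavy and 1 light CDR3 nucleotide sequence with their V and J genes, members formed 17 clonotypes in CD and 24 in HFD, 35 in all. Of these, 6 were found in both libraries, which is 35.3% of the CD and 25% of the HFD clonotypes. These 6 held 328 of 428 CD members (76.6%) and 200 of 327 HFD members (61.2%). Of 63 IGHV12-3/IGKV4-91 clonotypes 1 was in both, holding 1.36% of that pair's barcodes in CD and 14.5% in HFD. In the other paired barcodes 11 clonotypes were in both, holding 0.786% in CD and 2.04% in HFD. The libraries shared 8 paired cell barcodes, of which 0 were members and 0 had the same clonotype in both, so shared clonotypes did not rest on shared barcodes.

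Members were less evenly spread over clonotypes in CD. The largest clonotype (heavy CDR3 a with IGKJ2) held 208 CD members (48.6%, 43.8 to 53.4%) and 87 HFD members (26.6%, 21.9 to 31.7%), and it was the largest in both. The second (sequence b with IGKJ4) held 72 and 34. The third (sequence c with IGKJ4) held 6 CD members, 1.40%, and 66 HFD members, 20.2%. The fourth (sequence b with IGKJ2) was found in 53 HFD members (16.2%) and 0 CD members. Conversely, clonotypes with 26, 26 and 22 CD members had 0 in HFD. The chance that 2 members drawn from 1 library share a clonotype was 27.8% in CD and 15.2% in HFD, against 13.1% and 10.6% for IGHV12-3/IGKV4-91. At an equal draw of 193 barcodes the expected number of clonotypes was 14 in CD and 20.5 in HFD, against 24.3 and 39 for IGHV12-3/IGKV4-91 and 187 and 180 for the other paired barcodes. Barcodes of 1 clonotype may descend from 1 cell and are not independent draws, so the counting intervals are too narrow for shares of barcodes.

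Light chain J use differed between the libraries by barcodes, and less so, or in the other direction, when clonotypes were counted once for IGKJ2, IGKJ4 and IGKJ1, but not for IGKJ5. IGKJ2 was used by 311 CD members (72.7%, 68.2 to 76.8%) and 187 HFD members (57.2%, 51.6 to 62.6%), a difference of -15.5 percentage points (-22.2 to -8.62). IGKJ4 was used by 83 (19.4%) and 127 (38.8%), a difference of 19.4 points (12.9 to 25.8). IGKJ5 was found in 31 CD members (7.24%) and 0 HFD members, which allows up to 1.12%, and 26 of the 31 belonged to 1 clonotype. IGKJ1 was found in 3 and 13. With every clonotype counted once, IGKJ2 stood at 7 of 17 (41.2%) in CD and 13 of 24 (54.2%) in HFD, a difference of 13.0 points in the opposite direction (-16.8 to 39.5). By that count IGKJ4 differed by -0.25 points (5 of 17 and 7 of 24), IGKJ1 by -0.98 points (3 of 17 and 4 of 24) and IGKJ5 by -11.8 points (2 of 17 and 0 of 24), and the interval of each of these differences holds 0.

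**Figure D1:**
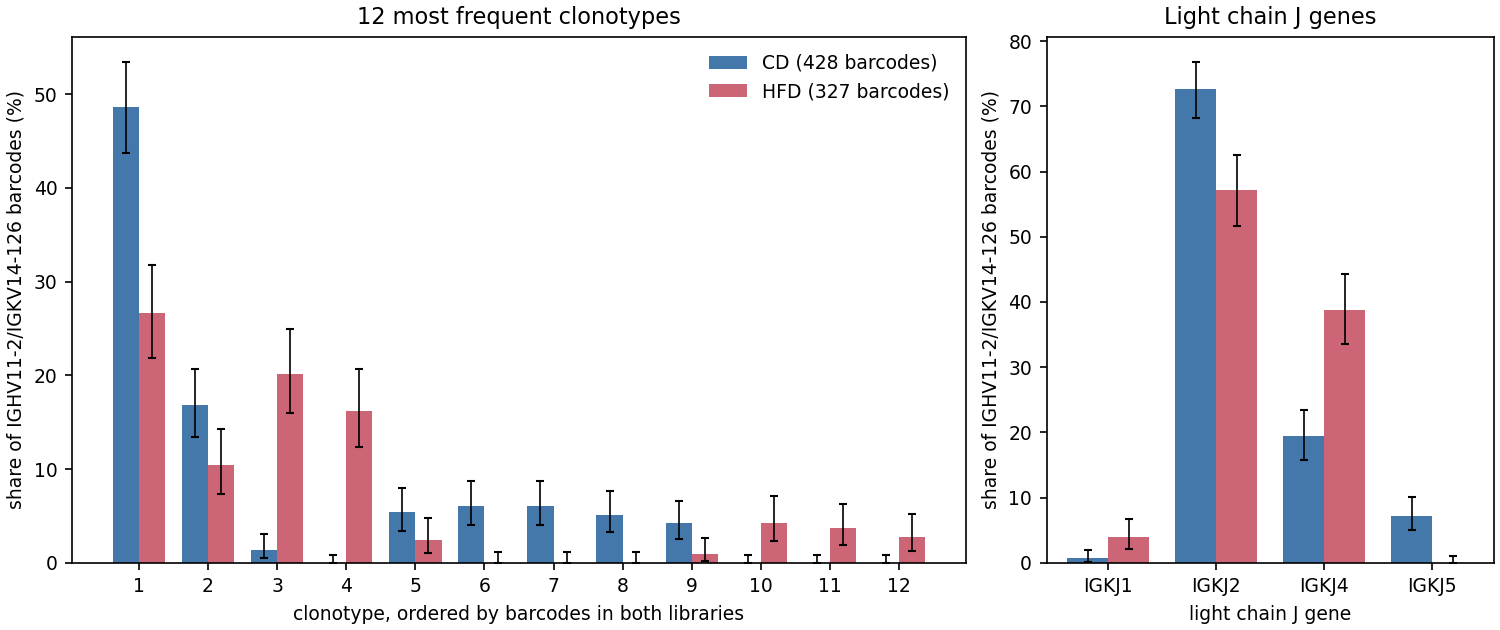
Share of IGHV11-2/IGKV14-126 barcodes in the 12 most frequent clonotypes (left, ordered by barcodes in both libraries) and by light chain J gene (right), in % per library; bars are the CD (428 barcodes) and HFD (327 barcodes) libraries and lines are exact 95% intervals. Clonotype 1 leads in both libraries (48.6% and 26.6%), clonotypes 3 and 4 are mainly HFD, and clonotypes 6 to 8 are in CD alone.

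Expression was read for the members also found in the expression matrices, 379 in CD and 309 in HFD, all of which passed a filter of 300 genes or more and a mitochondrial share of 10% or less. Their UMIs were summed per library, giving 2618319 UMIs in CD and 2790568 in HFD. The median per barcode was 5942 UMIs in CD and 8165 in HFD, against 4576 and 5690 for the other paired barcodes and 5908 and 8393 for IGHV12-3/IGKV4-91. The expression libraries gave a check of the receptor label. Ighv11-2 made up 91.3% (CD) and 96.0% (HFD) of heavy V gene UMIs in members and 0.633% and 0.378% in the other paired barcodes, and Igkv14-126 made up 96.0% and 95.2% of kappa V gene UMIs. Markers of other cells were also present. The 16 macrophage markers summed to 6780 CPM (counts per 1000000 summed UMIs) in CD members and 1765 in HFD members, against 36035 and 43834 in barcodes with no receptor contig, and none was at 0 in either member sum. Barcodes with more than 1% of UMIs from macrophage, T, NK, dendritic, granulocyte or mast cell markers numbered 27 of 379 (7.12%) in CD and 10 of 309 (3.24%) in HFD. Leaving them out, an alternative chosen after the data were seen, brought the macrophage sum to 861 and 808 CPM, and results are given with and without them where this matters. No doublet caller was run.

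The first expression comparison asked which genes set these cells apart from the other paired barcodes. Members had more RNA of most B-1 marker genes and less RNA of genes of follicular B-2 cells, the recirculating B cells of lymphoid organs, and of 5 of 10 T cell markers. By edgeR's quasi-likelihood test with Benjamini-Hochberg adjustment at 0.05, with the 2 libraries as replicates and as a block, 796 of 11690 genes were higher (6.81%) and 508 lower (4.35%), 11.2% in either direction. With library totals in place of TMM scaling the split was 513 higher and 1560 lower, and the median of all genes moved to -0.16 on the log2 scale, so directions of small changes rest on the scaling. V, D and J segments and light constant genes were not tested. The p-values rest on how far the difference between the classes disagrees between the 2 libraries, which are also the 2 diets. This leaves 1 residual degree of freedom per gene, pooled over genes.

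Of the 21 B-1 marker genes 17 were higher, 1 was lower and 3 were not called, with a median log2 fold change of 0.74 against 0.00 over all genes tested. Without the barcodes over 1% of other lineages 19 were higher, against 12 with DESeq2, 4 without the library as a block, and 9 of 17 without barcodes with 3 or more UMIs of other lineages. The list was drawn up with results of these cells known and its members are not independent evidence of a direction. Cd5, a surface brake on receptor signalling by which B-1a cells are defined, stood at 21.4 (CD) and 19.4 CPM (HFD) in members and at 8.55 and 9.98 in the others, a log2 fold change of 1.29 ± 0.19 (SE; edgeR adjusted p = 1.46e-05). Bhlhe41, a transcription factor that B-1a cells need, stood at 48.9 and 71.3 CPM against 26.0 and 36.4 (1.10 ± 0.11, edgeR adjusted p = 1.9e-08). Both genes were higher in members in each library, and for both the member values did not overlap the others. How many of all genes tested had values without such overlap was not counted, here or below. Zbtb32, a transcriptional repressor of lymphocytes, stood at 177 and 254 CPM against 125 and 160 (0.74 ± 0.07, edgeR adjusted p = 1.09e-08). Plac8, a small cysteine-rich protein abundant in leukocytes, stood at 1302 and 1402 CPM against 925 and 1008 (0.64 ± 0.06, edgeR adjusted p = 7.29e-09). For these as well, both member values lay above both values of the other barcodes. Anxa2 and S100a6, which bind calcium, had log2 fold changes of 1.10 and 1.01, and Il5ra, a subunit of the interleukin-5 receptor that supports B-1 growth, 0.80. Ctla4 (30.9 and 25.1 CPM against 19.5 and 25.5, edgeR adjusted p = 0.0524) and the integrin gene Itgam (93.6 and 48.7 against 59.2 and 65.5) did not pass. Tbx21, which encodes the transcription factor T-bet, was lower, at 0.382 and 0 CPM against 2.17 and 2.24.

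The B-2 marker genes went the other way, with 11 of 15 lower, 1 higher and a median of -0.88. Fcer2a, which encodes the low-affinity IgE receptor CD23, stood at 5.73 and 3.94 CPM in members and 102 and 126 in the others (-4.41 ± 0.16, edgeR adjusted p = 9.38e-17). Cr2, the complement receptor CD21, stood at 1.15 and 5.38 CPM against 38.6 and 39.7 (-3.41 ± 0.30, edgeR adjusted p = 8.12e-06). With Satb1, a chromatin organiser (-3.55), they had the lowest folds of the list. The IgD gene Ighd (69.9 and 71.3 CPM against 217 and 248, -1.57), the lymph node homing gene Ccr7 (70.3 and 53.8 against 291 and 223, -1.90) and the transcription factor gene Bach2 (-1.37) were lower by smaller folds. Klf2 was the 1 gene called higher (0.21 ± 0.06). With library totals alone 13 of the 15 genes were lower and none was higher.

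**Figure D2:**
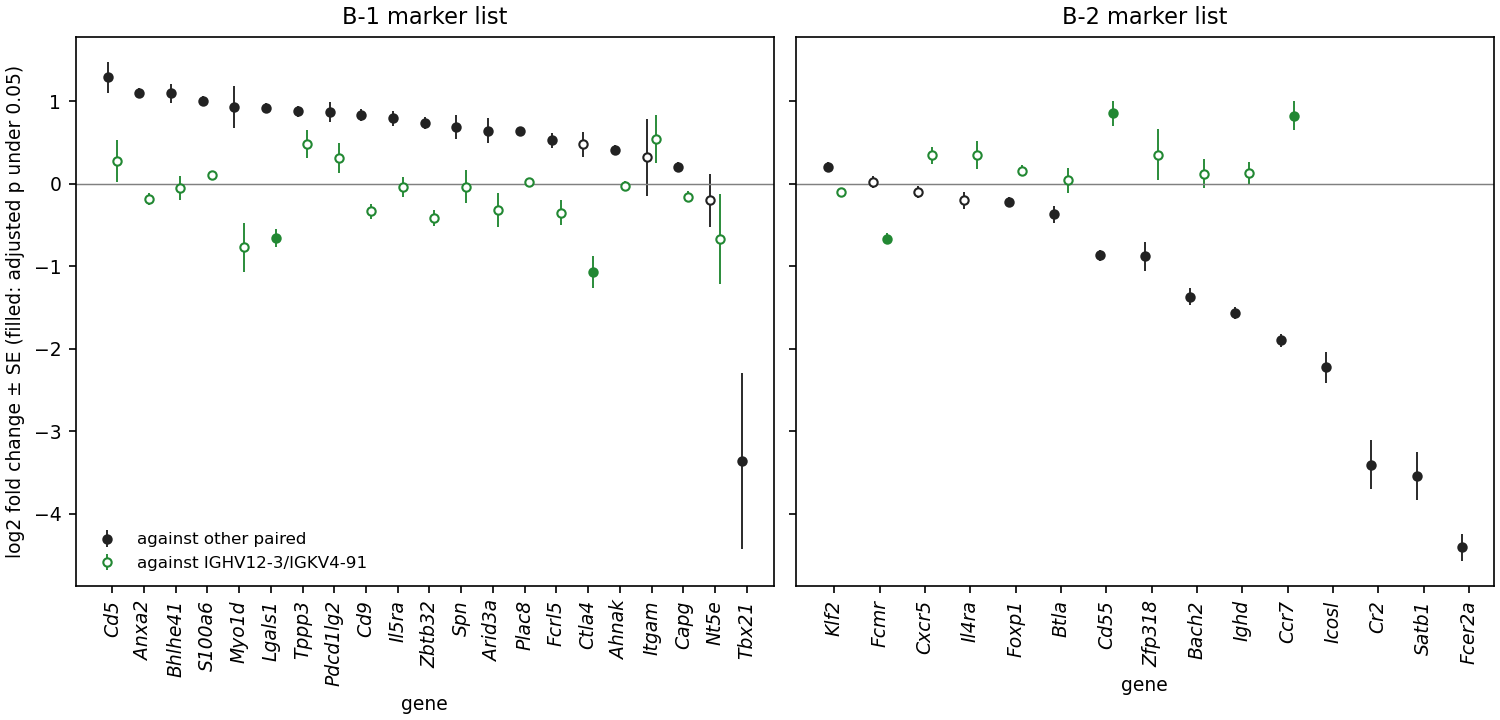
Log2 fold change ± SE from the edgeR fit for each gene of the B-1 (left) and B-2 (right) marker lists, members against the other paired barcodes (black) and against IGHV12-3/IGKV4-91 barcodes (green); filled points have an adjusted p under 0.05. Against the other paired barcodes 17 of 21 B-1 genes lie above 0 and filled and 11 of 15 B-2 genes below 0 and filled, while against IGHV12-3/IGKV4-91 most points are open.

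Among genes named by size of fold, the highest was Krt8, a keratin of epithelial intermediate filaments. It stood at 54.6 and 59.1 CPM in members and 10.7 and 18.5 in the others (2.15 ± 0.14, edgeR adjusted p = 8.4e-10). Adm, which encodes the vasodilator peptide adrenomedullin, stood at 44.3 and 69.9 CPM against 12.9 and 22.6 (1.85 ± 0.12, edgeR adjusted p = 7.96e-12). Ahnak2, a very large scaffold protein, stood at 104 and 189 CPM against 30.8 and 61.9 (1.83 ± 0.08, edgeR adjusted p = 3.59e-15). In each of these 3 genes both member values exceeded both values of the other barcodes, which a choice by fold and direction favours. The next were Rap1gap (1.77), which switches off the small GTPase Rap1, Sapcd1 (1.74), Lmo7 (1.43) and Gas7 (1.37), Tnfrsf8 (1.36), which encodes the TNF receptor family member CD30, the DNA repair gene Mgmt (1.36), Oosp1 (1.28), the semaphorin co-receptor Nrp2 (1.28) and Slamf9 (1.26). IGHV12-3/IGKV4-91 barcodes had levels of Krt8 (83.8 and 58.8 CPM), Adm (87.3 and 77.6) and Ahnak2 (231 and 255) at or above those of the members in at least 1 library, but low Sapcd1 (6.98 and 15.8) and Lmo7 (22.3 and 42.5).

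The lowest folds were those of Vpreb3, a protein that associates with immature B cell receptors, and Fcer2a. Vpreb3 stood at 1.53 and 1.08 CPM in members and 46.2 and 44.4 in the others (-4.97 ± 0.26, edgeR adjusted p = 9.29e-14). Cpm, which encodes the surface enzyme carboxypeptidase M, stood at 4.2 and 1.43 CPM against 56.7 and 31.3 (-3.83), Gpr171, a G protein-coupled receptor, at 3.06 and 2.51 against 39.6 and 46.0 (-3.79), and the kinase gene Lrrk2 at 4.97 and 3.23 against 53.1 and 54.4 (-3.57). The others named by the rule were Cr2, Chchd10 (-3.13), Neurl3 (-2.92), Ms4a4c (-2.70), B3gnt8 (-2.55), the MAP kinase phosphatase gene Dusp2 (-2.43) and Icosl (-2.23), the ligand of the T cell costimulator ICOS. In all 12 of them both member values lay below both values of the other barcodes. Since the rule chose them by fold and direction, this is no separate evidence. All 24 of these genes passed the same test without the barcodes over 1% of other lineages.

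**Figure D3:**
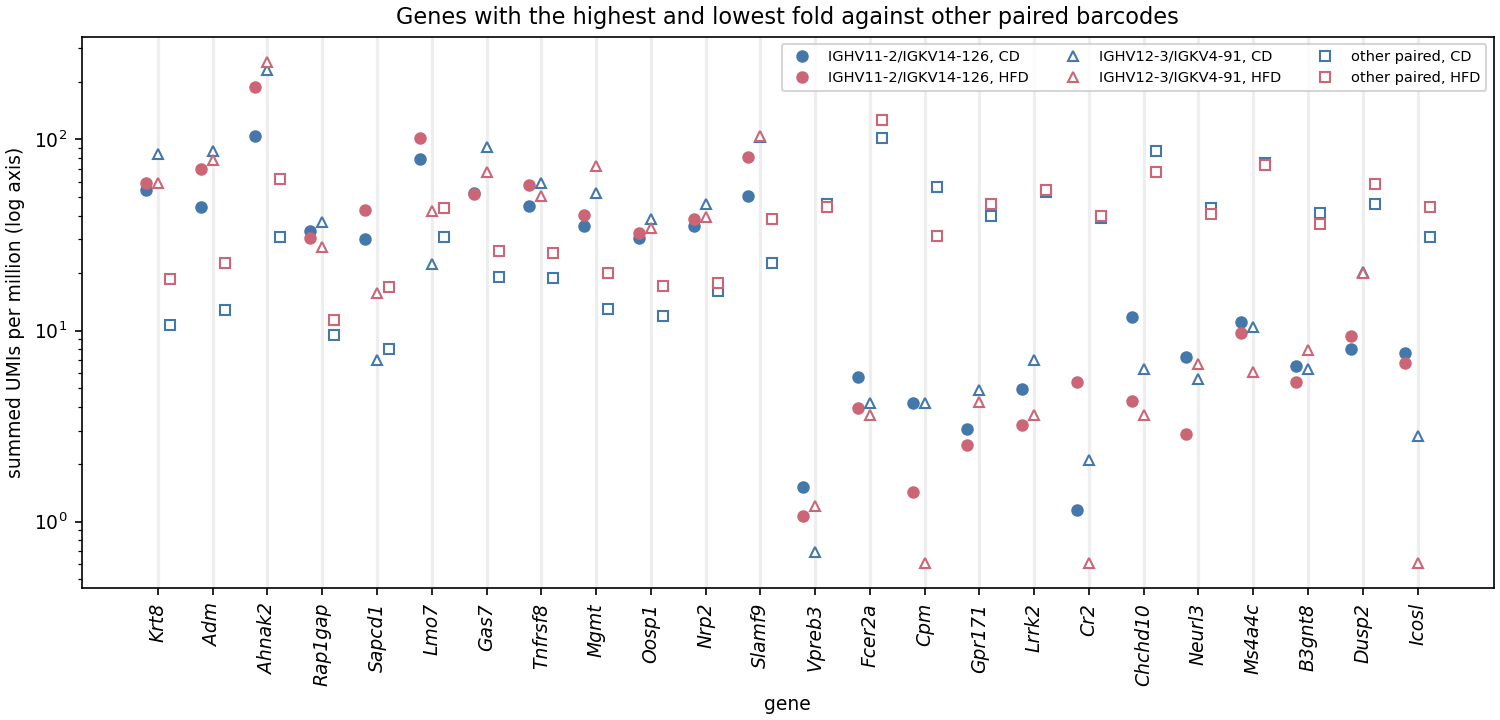
Summed UMIs in CPM (log axis) of the 12 genes with the highest and the 12 with the lowest fold against the other paired barcodes, one point per library and receptor class; circles are IGHV11-2/IGKV14-126, triangles IGHV12-3/IGKV4-91 and squares the other paired barcodes, blue for CD and red for HFD. Circles lie above the squares for the left 12 genes and below them for the right 12, from Krt8 (54.6 and 59.1) to Icosl (7.64 and 6.81).

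Genes of B cell receptor signalling were called in both directions, 6 higher and 5 lower of 30. With library totals alone 4 were higher and 12 lower, and the median turned from 0.07 to -0.08; without the library as a block 2 were higher and 3 lower. The phosphatase gene Ptpn22 stood at 133 and 135 CPM against 88.6 and 83.1 (0.79 ± 0.08), and Siglecg, an inhibitory lectin of B-1 cells, at 327 and 321 against 280 and 311 (0.29 ± 0.06). Cd5, the adaptor gene Dok3, Nfatc1 and Bcl10 were also higher. The inhibitory co-receptor gene Cd72 stood at 4.2 and 8.60 CPM against 27.6 and 38.6 (-2.21 ± 0.20), and the exchange factor gene Rasgrp3 at 5.35 and 4.3 against 27.5 and 31.7 (-2.47 ± 0.22). Cr2, the inhibitory Fc receptor gene Fcgr2b (-0.58) and the kinase gene Prkcb (-0.24) were lower. The higher and the lower genes both include inhibitors of signalling.

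Homing genes were split as well, 5 higher and 3 lower of 19, but 4 higher and 9 lower with library totals alone. Ccr6, a chemokine receptor of follicular B cells, stood at 0.382 and 1.79 CPM against 21.1 and 27.5 (-4.3 ± 0.33, edgeR adjusted p = 2.01e-10). Gpr183, which guides B cells in follicles, stood at 62.6 and 63.1 CPM against 181 and 155 (-1.26), and Ccr7 was the other lower gene. Ccr9 (7.64 and 7.17 against 3.13 and 5.05, edgeR adjusted p = 0.0423), Ccr1, Cd9 and the integrin genes Itgb1 (0.59) and Itgb7 (0.46) were higher.

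Of 13 tested genes of regulatory B cells 5 were higher and 1 lower (3 and 0 with DESeq2, 1 and 0 without the library as a block). Ebi3, a subunit of heterodimeric cytokines, stood at 68.0 and 76.0 CPM against 32.4 and 41.8 (1.11 ± 0.10, edgeR adjusted p = 4.24e-09), and Il12a, which encodes a chain it can pair with, at 2.29 and 14.3 against 8.58 and 22.2 (-0.76 ± 0.24, edgeR adjusted p = 0.0445). Entpd1, Cd274, Pdcd1lg2 and Lgals1 were the other higher genes. Of 14 antibody secretion genes 6 were higher and 1 lower, with a median of -0.02. The counts were 2 and 0 with DESeq2, 5 and 4 with library totals alone, and 0 and 0 without the library as a block. The chaperone gene Mzb1 was among the higher ones (1022 and 955 CPM against 796 and 774, 0.48 ± 0.06). Prdm1, which drives plasma cell fate, was low in all sums (5.35 and 9.32 against 2.40 and 5.45, edgeR adjusted p = 0.0347).

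Cell cycle genes gave a count that rested on a few barcodes. Of 25 genes tested 11 were higher and none lower, for example Top2a, the DNA topoisomerase of dividing cells (18.0 and 35.8 CPM against 5.91 and 15). Without the barcodes over 1% of other lineages 3 were higher (Top2a edgeR adjusted p = 0.79), and without the largest clonotype 0 of 24. With each barcode thinned to 2000 UMIs, 10 or more UMIs of the list were found in 3 of 188 CD members of the largest clonotype and 0 of 191 other CD members (which allows up to 1.91%), and all 3 were over 1% of other lineages. In HFD they were found in 2 of 81 and 4 of 226, of which 0 and 1 were over 1%, and in the other paired barcodes in 17 of 4811 (CD) and 17 of 2517 (HFD). Among the other lists there were 0 calls among 16 heat shock and 16 macrophage genes, 2 higher and none lower of 18 fatty acid oxidation genes, 3 and 0 of 16 glycolysis genes, 0 and 3 of 20 sterol synthesis genes, 3 and 5 of 24 interferon response genes, 2 and 1 of 10 MHC class II genes, 4 and 1 of 18 innate sensing genes, 2 and 3 of 21 immediate early genes and 1 and 2 of 19 unfolded protein response genes. Over all 11690 genes tested 6.81% were higher and 4.35% lower. The counts of these other lists are small and are not read as results about the lists. With library totals alone the lower genes were 8 for sterol synthesis, 8 for the interferon response, 8 for immediate early genes and 7 for the unfolded protein response.

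Some markers of T cells were lower in members than in the other paired barcodes. The 10 genes of the list summed to 60.7 CPM (CD) and 30.8 (HFD) in members, 109 and 81.2 in the others and 453 and 561 in barcodes with no receptor contig. Of the 10, 5 were lower (Cd3d, Cd3e, Trbc2, Cd4 and Lat), none was higher and the median log2 fold change was -1.41. Without the barcodes over 1% of other lineages 5 were lower as well (median -1.35), and with DESeq2 1 was. Cd3d, a chain of the T cell receptor complex, stood at 5.35 and 4.3 CPM against 20.4 and 14.3 (-1.70 ± 0.24, edgeR adjusted p = 1.02e-05). Cd4 and Cd8a were at 0 in HFD members. Of the granulocyte and mast cell markers 2 of 4 were lower, of the NK cell markers 1 of 5 and of the dendritic cell markers 1 of 3. The granulocyte and mast cell markers summed to 9.55 CPM (CD) and 5.38 (HFD) in members. In the other paired barcodes they summed to 7.17 and 181, so members were lower in HFD alone. Without the barcodes over 1% of other lineages 0 of these genes had enough UMIs to be tested. The part of these cells in the B-1 and B-2 gene differences was not tested.

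The second expression comparison set the members against the IGHV12-3/IGKV4-91 barcodes, the other pair known for phosphatidylcholine binding. Of 8565 genes tested 65 were higher (0.759%) and 100 lower (1.17%), 1.93% in either direction. DESeq2 called 7 and 15, and without the barcodes over 1% of other lineages edgeR called 182 and 214, so the number rests on the method and on a few barcodes.

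The genes highest in members by fold have varied roles. Epcam, an epithelial cell adhesion molecule, stood at 82.1 and 61.3 CPM in members and 26.5 and 20.6 in IGHV12-3/IGKV4-91 barcodes (1.62 ± 0.17, edgeR adjusted p = 0.000313). Pglyrp1, which binds bacterial peptidoglycan, stood at 109 and 146 CPM against 51.0 and 52.2 (1.32 ± 0.14, edgeR adjusted p = 0.000313). Ltb, which encodes lymphotoxin beta, stood at 443 and 561 CPM against 179 and 315 (1.07 ± 0.11, edgeR adjusted p = 0.00218). In these 3 genes, chosen by fold and direction, the values of the pairs did not overlap. Sapcd1 (30.2 and 42.6 against 6.98 and 15.8, 1.69), Lmo7 (79.1 and 102 against 22.3 and 42.5, 1.5), Slamf6 (33.6 and 41.6 against 10.5 and 21.8, 1.23) and H2ax (47.7 and 54.8 against 20.9 and 30.3, 1.01) were also among the 8 highest. The H2ax level in members differed by clonotype, with 67.8 (CD) and 103 CPM (HFD) in the largest clonotype and 26.6 and 34.9 in the other members.

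The genes lowest in members by fold were varied as well. Nfkbid, an inhibitor protein that tunes NF-kB in activated lymphocytes, stood at 33.6 and 30.1 CPM against 128 and 109 (-1.87 ± 0.13, edgeR adjusted p = 5.18e-05). Nr4a1, an immediate early gene induced by antigen receptor signals, stood at 6.49 and 20.4 CPM against 46.1 and 49.7 (-1.83 ± 0.33, edgeR adjusted p = 0.0431), and Cd83 at 75.6 and 66.7 against 138 and 117 (-0.82). These were the 2 of 18 immediate early genes called, both lower, and DESeq2 called 0 of the 18. Gng13, a G protein gamma subunit, stood at 7.26 and 11.5 CPM against 54.5 and 35.2 (-2.20 ± 0.29, edgeR adjusted p = 0.00226). Ets2 (-1.92), Plk2 (-1.89), Marcksl1 (21.4 and 50.5 against 90.1 and 162, -1.82), the actin crosslinker gene Actn1 (-1.72) and Zfp385a (-1.5) completed the 8 lowest.

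On the marker lists the 2 pairs differed at few genes, and DESeq2 called at most 1 gene in each of the lists below. Of 20 B-1 genes none was higher and 2 were lower, Ctla4 (30.9 and 25.1 CPM against 51.7 and 66.7, -1.07 ± 0.19) and Lgals1 (-0.66), which encodes galectin-1. Of 11 B-2 genes 2 were higher, Ccr7 (70.3 and 53.8 against 32.1 and 37.6, 0.83) and the complement regulator gene Cd55 (131 and 148 against 56.5 and 101, 0.86), and Fcmr, the IgM Fc receptor gene, was lower (436 and 536 against 762 and 790, -0.66). Of 28 receptor signalling genes 2 were lower, Cd72 (4.2 and 8.60 against 21.6 and 23.7, -1.80) and Nfatc1 (107 and 124 against 176 and 169, -0.56). Of 15 homing genes 2 were higher and 3 lower, the lower ones being Ccr9 (7.64 and 7.17 against 27.9 and 31.5, -1.98), Ccr1 (-0.77) and the hyaluronan receptor gene Cd44 (78.7 and 115 against 158 and 195, -0.86). Fgl2 (14.5 and 19.0 against 54.5 and 41.8, -1.49) was lower as well.

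The third comparison set the HFD members beside the CD members. It rests on 1 library per diet and has no replicate check, so ratios are given with the exact interval of a ratio of 2 Poisson counts and no test. Of 7385 genes with at least 50 UMIs, 54 lay at least 1 log2 unit higher in HFD (0.731%) and 133 at least 1 lower (1.8%), 2.53% in all. In the other paired barcodes 144 were higher (1.25%) and 129 lower (1.12%) of 11520, 2.37% in all, and in IGHV12-3/IGKV4-91 barcodes 46 (0.825%) and 49 (0.879%) of 5576, 1.7% in all. Macrophage RNA moved with the surplus of lower genes in members. Of the 14 macrophage markers measured 13 were past the fold and lower in HFD, with a median of -1.85. Without the barcodes over 1% of other lineages the median was -0.12, and 76 genes were higher (1.08%) and 37 lower (0.527%) of 7022. In sums of cells, more cells with a transcript and more transcript per cell cannot be told apart.

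Genes higher in HFD members included 2 of the carnitine route by which long-chain fatty acids enter mitochondria. Cpt1a, the enzyme that starts that route, stood at 13.7 CPM in CD and 36.2 in HFD (log2 ratio 1.40, 0.83 to 1.99). Slc25a20, the carnitine carrier of the inner membrane, stood at 11.8 and 32.6 (1.46, 0.86 to 2.10). Both kept their direction without the barcodes over 1% of other lineages (1.51 and 1.63), and the ratios were 0.85 and 0.69 in the other paired barcodes. The difference of the log2 ratio in members from that in the others was 0.77 for Slc25a20 (0.16 to 1.38) and 0.55 for Cpt1a (-0.02 to 1.12). Within the largest clonotype the log2 ratio was 0.93 for Cpt1a and 2.58 for Slc25a20, and without it 2.20 and 0.80. These 2 were the fatty acid oxidation genes past the fold, of 17 measured. Of the 17, 11 lay above 0 and 6 below, with a median of 0.22. In IGHV12-3/IGKV4-91 barcodes 10 of 14 lay above 0 with a median of 0.23, and 2 were past the fold, both higher. In the other paired barcodes 13 of 18 lay above 0 with a median of 0.18, and 0 were past the fold. Of all genes 50.8% lay above 0 in members, 55.9% in the other paired barcodes and 49.6% in IGHV12-3/IGKV4-91 barcodes.

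The highest ratio was that of Tppp3, a protein that binds tubulin, at 106 CPM in CD and 431 in HFD (2.02, 1.83 to 2.22), and it was 2.05 in the other paired barcodes and 2.71 in IGHV12-3/IGKV4-91 barcodes. The others named by the rule were Zfp811 (1.62), the histone gene H2ac24 (47.7 and 138 CPM, 1.53), Marcksl1 (21.4 and 50.5, 1.24), Ptms (76.0 and 177, 1.22), Agbl1 (45.1 and 104, 1.21), Crip2 (1.16) and Nsmce4a (1.03). All 10 stayed above 1 without the barcodes over 1% of other lineages.

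All 10 genes lowest in HFD by the rule had higher CPM in the barcodes without a receptor contig than in members, in both libraries. Cxcl13, a B cell attracting chemokine made by peritoneal macrophages, stood at 544 CPM in CD members and 7.88 in HFD members (-6.11), and at 30.1 and 6.03 without the barcodes over 1% of other lineages (-2.32). Saa3, an acute phase protein, had ratios of -2.99 and -1.60. Alox15 (325 and 56.3 CPM) and Prg4 (414 and 101) changed sign when these barcodes were left out, from -2.53 to 0.35 and from -2.03 to 0.76. C4b, Fcna, Ecm1, Trf, Fcgr3 and Apoe (841 and 197 CPM) had ratios of -3.61, -3.09, -2.72, -2.60, -2.15 and -2.09, and between -0.98 and -0.02 without these barcodes. These values describe RNA found with member barcodes and not RNA known to be made by the B cells.

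**Figure D4:**
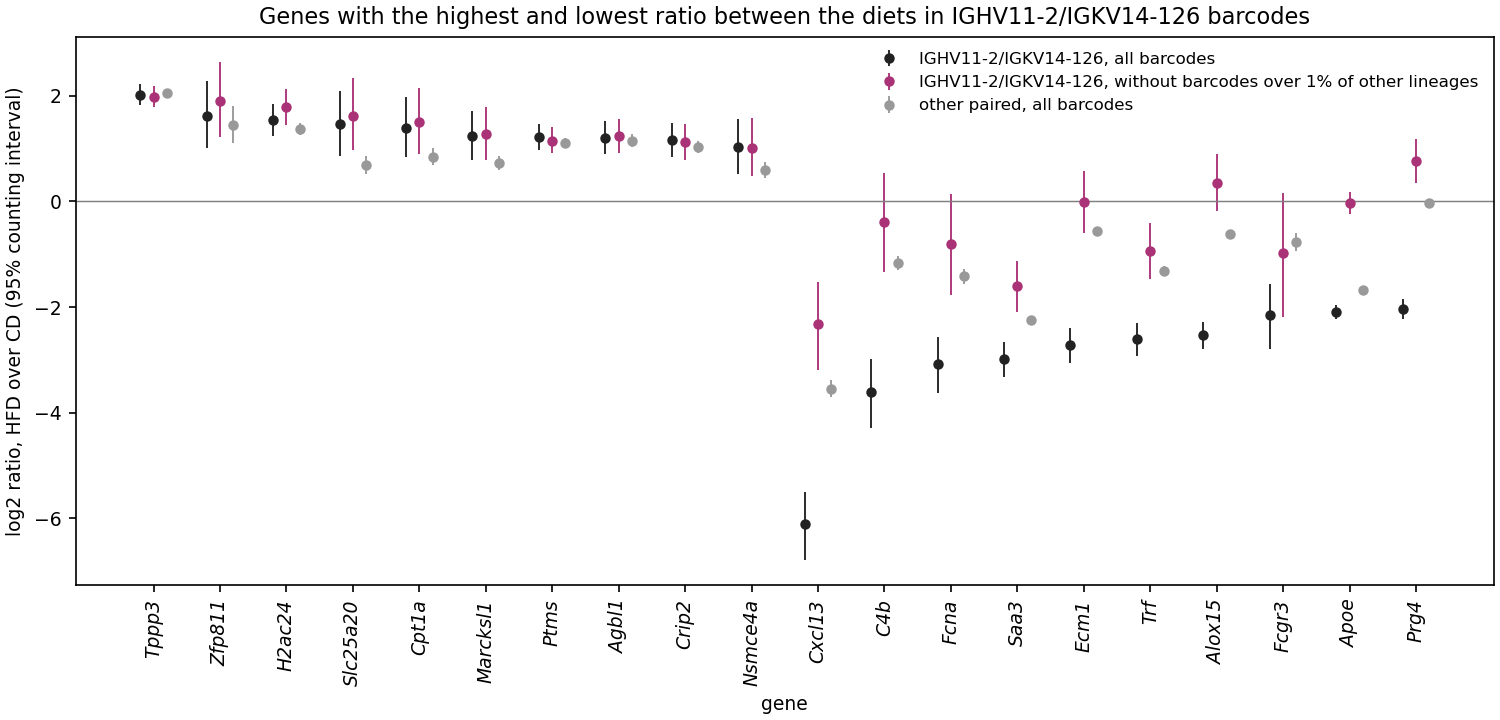
Log2 ratio of HFD over CD with its 95% counting interval for the 10 highest and 10 lowest genes in members (black), in members without barcodes over 1% of other lineages (purple) and in all other paired barcodes (grey). The left 10 genes keep their ratio in the purple points, from Tppp3 (2.02 and 1.98) on, whereas the right 10 move towards 0 or past it, as Prg4 does (-2.03 and 0.76).

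With those barcodes left out, the same rule named other genes lower in HFD beside Cxcl13 and Saa3. Tagap, a GTPase-activating protein of activated lymphocytes, then stood at 56.2 CPM in CD and 15.8 in HFD (-1.83, -2.37 to -1.32). Ankrd37, a target of hypoxia-inducible factor, stood at 64.0 and 21.5 (-1.57, -2.04 to -1.12), and Myc, which drives cell growth, at 128 and 53.5 (-1.26, -1.56 to -0.96). The other paired barcodes, treated alike, had -1.52 for Tagap, -1.22 for Ankrd37 and -0.85 for Myc. Ddah1 (-1.69), Gm26532 (-1.25), Dnaja1 (-1.15), a cochaperone of Hsp70, Rsrp1 (-1.14) and the activation marker gene Cd69 (-1.09) completed the 10 lowest. Among the higher genes the rule then added H2ac8 (12.4 and 30.5 CPM, 1.29), the polarity gene Pard3b (1.21) and the nuclear lamina gene Lmnb1 (19.3 and 44.5, 1.20). Their ratios were 0.39, 1.03 and 0.27 in the other paired barcodes. With all members these genes were not among the 10 highest. The exclusion took out 3 CD members and 1 HFD member with 10 or more thinned UMIs of cell cycle genes. Its part in these ratios was not tested.

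Chaperone genes lay lower in HFD members as a group. Of 12 heat shock genes measured 12 lay below 0, with a median of -0.49, and the median was -0.45 in the other paired barcodes and -0.47 in IGHV12-3/IGKV4-91 barcodes. Of 19 genes of the unfolded protein response, by which the endoplasmic reticulum adjusts to its load of secretory protein, 18 lay below 0 with a median of -0.34, against -0.23 and -0.60. Hspa5, the main chaperone of that compartment, stood at 286 CPM in CD and 130 in HFD (-1.13, -1.32 to -0.95), and the ratio was -0.92 without the barcodes over 1% of other lineages and -0.48 in the other paired barcodes. Sdf2l1, its cofactor, stood at 113 and 55.5 (-1.02, -1.31 to -0.73). These 2 were the list's genes past the fold. Of 17 immediate early genes 14 lay below 0, with a median of -0.31, and 3 were past the fold lower and 1 higher. The median was -0.09 in the other paired barcodes (11 of 20 below 0) and -0.13 in IGHV12-3/IGKV4-91 barcodes (11 of 18 below 0). Of all genes measured in members 50.8% lay above 0.

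B-1 markers lay higher in HFD members in 15 of 19 genes with a median of 0.37, against 0.24 in the other paired barcodes, and Tppp3 was the 1 past the fold. Of 15 cell cycle genes 15 lay above 0, with a median of 0.48, and 2 were past the fold. Of all genes measured in members 50.8% lay above 0. In the other paired barcodes 22 of 24 cell cycle genes lay above 0, with a median of 0.73 and 10 past the fold. In the other pair known for phosphatidylcholine binding 3 of 9 did, with a median of -0.03. As given above, few barcodes carry cell cycle RNA. With barcodes over 1% of other lineages left out, Top2a stood at 0.429 CPM in CD and 34.7 in HFD. That exclusion took out 3 CD members and 1 HFD member with 10 or more thinned UMIs of the list. With all members the Top2a difference was smaller.

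The largest clonotype was set against the other members within each library, a comparison chosen after the data were seen. Of 7385 genes edgeR called 41 higher (0.555%) and 5 lower (0.0677%), 0.623% in all, and DESeq2 called 1. The higher genes included Top2a (32.8 against 2.35 CPM in CD, 92.2 against 12.6 in HFD), Stmn1 (41.7 against 1.57, 138 against 36.9) and H2ax (67.8 against 26.6, 103 against 34.9), which were higher in both libraries. Few barcodes carried such RNA. After thinning, Top2a was found in 5 of 188 members of the clonotype and 0 of 191 others in CD, and in 2 of 81 and 5 of 226 in HFD. The 3 CD barcodes with 10 or more thinned cell cycle UMIs were all over 1% of other lineages. The macrophage genes Pf4 and Saa3 were called on the CD library, with 341 against 180 and 347 against 118 CPM, while in HFD they stood at 132.7 against 132.5 and 18.4 against 34.4. Of the CD members of this clonotype 16 of 188 (8.51%) were over 1% of other lineages, against 11 of 191 other CD members (5.76%), and in HFD 1 of 81 and 9 of 226. Lars2, a mitochondrial leucyl-tRNA synthetase, was lower, at 889 CPM in CD and 1225 in HFD within the clonotype and 1233 and 1564 in the other members (log2 fold change -0.40 ± 0.08, edgeR adjusted p = 6.07e-05). Fth1, the ferritin heavy chain, was lower as well, at 2541 and 2315 CPM against 2981 and 2843 (-0.25 ± 0.07, edgeR adjusted p = 0.0278). Cmss1 (log2 fold change 0.45) and Cdk8 (0.43) were called higher. Lars2, Cmss1 and Cdk8 are among the 8 genes with the most variation between member barcodes, given under other observations. The part of single barcodes in these sums was not tested.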

How the data were processed

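Droplet libraries of gene expression and of B cell receptors were made from sorted CD45+ peritoneal cells of 1 CD and 1 HFD group. The authors' deposited matrices hold raw UMI counts per gene and barcode, and the authors' deposited contig tables hold V, D, J and constant genes, CDR3 sequences and UMI counts per contig. Cell Ranger appears as 6.0.1, beside mm39 and Seurat 4.3.0, per the submitters' processing notes, and as 8.0.1 per the file headers of the matrices. A 3-prime expression kit is named, per the labels' protocols, beside the receptor libraries. Library totals were 73549582 (CD) and 57630074 (HFD) UMIs over 13227 and 6897 barcodes, of which 30 barcodes occur in both matrices. Contigs were productive throughout, 18797 in CD and 8706 in HFD.

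Members were barcodes with exactly 1 heavy and 1 light contig of the 2 V genes. Members and gene lists were chosen with earlier results of these data known. Barcodes past the filter (300 genes or more, 10% mitochondrial UMIs or less) were summed per library and receptor class. edgeR 4.0.16 (R 4.3.3, limma 3.58.1) tested genes with at least 50 UMIs over the sums with TMM scaling and the library as a block. Tested on simulated counts for members against the other paired barcodes (11698 genes), it called 78% of 100 genes changed 2-fold, 100% of 100 changed 4-fold and 0% of unchanged genes. The changed genes were drawn from those with more UMIs than the test itself required, and all genes had the same fixed dispersion. Whether these percentages of called genes hold for the measured counts, or for genes with fewer UMIs, was not tested. DESeq2 1.42.0, other scalings, filters, thinning to 2000 UMIs, comparison classes, each library left out and exclusions of barcodes were alternatives. Shares have exact 95% intervals (Python 3.11.15, scipy 1.17.1).

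Named genes passed an adjusted p of 0.05 with the same direction in both libraries and at least 30 CPM in the higher class, the 12 highest and lowest folds (8 for IGHV12-3/IGKV4-91). Between diets they were the 10 highest and lowest ratios with at least 30 CPM and a UMI in at least 10% of members of the higher library, and for variation the 8 highest. Genes of lists were also named, after their values were seen. The naming skipped immunoglobulin segments and genes that are mitochondrial, sex-linked or ribosomal. No doublet caller was run. 1 gene that the rule and 2 lists took is not reported here, and it was left out of those lists.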

Additional observations from a re-analysis of the deposited data

Results flagged for a closer look

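Further barcodes carried both V genes together with more than 1 heavy or light chain contig and were left out by the rule. They numbered 61 in CD and 51 in HFD, and drew attention as receptor data that no comparison above uses. With such barcodes allowed, the pair was found in 489 of 7880 barcodes in CD (6.21%) and 378 of 3830 in HFD (9.87%).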

How the results depend on the processing

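The share of paired barcodes kept its direction between diets in every setting run. It was 7.18% in CD among barcodes in the matrix and past the filter. Counting clonotypes once gave 0.433% (CD) and 1.12% (HFD), 0.687 points apart, and the IGKJ2 difference reversed to 13.0 points. By the deposited clonotype identifiers there were 10 clonotypes in CD and 14 in HFD, the largest with 58.9% and 44.6% of members.

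Against the other paired barcodes, genes higher and lower numbered 312 and 114 with DESeq2, 513 and 1560 with library totals alone, 151 and 76 without barcodes with 3 or more UMIs of other lineages, and 514 and 271 after thinning. Against IGHV12-3/IGKV4-91 they numbered 7 and 15 with DESeq2, 165 and 216 with no filter on low counts, 0 and 0 without barcodes with 3 or more UMIs of other lineages (edgeR, 192 genes at an unadjusted p under 0.05), and 182 and 214 without barcodes over 1%. Lower genes numbered 60 after thinning and higher genes 117 without the largest clonotype. Without the library as a replicate block the counts were 76 and 104, and 2 and 14. With 1 sum per class left, leaving out a library gives values with no test.

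Between diets, genes higher and lower numbered 21 and 45 after thinning, 14 and 24 without barcodes with 3 or more UMIs of other lineages, and 211 and 295 at 20 UMIs. Lower genes numbered 64 without the largest clonotype and 37 without barcodes over 1% of other lineages, and higher genes 31 in the largest clonotype alone. Without barcodes over 1%, Alox15 reversed to 0.35 and Prg4 to 0.76. Without barcodes with 3 or more UMIs, Apoe reversed to 0.14, Fcgr3 and Fcna to 1.16 and Prg4 to 1.43. Stricter settings tested fewer genes and fewer barcodes (67 CD and 24 HFD members without barcodes with 3 or more UMIs). Other causes were not tested.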

Other observations

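Variation between member barcodes was read as the variance over the mean of counts thinned to 2000 UMIs, whose median over 1866 genes was 1.03 in CD and 1.02 in HFD. Slpi (46.1 and 43.8), Lyz2 (50.1 and 12.3) and Fn1 (7.32 and 7.95) stood high and came to 1.28 and 1.24, 1.90 and 1.70, and 1.5 and 0.993 once barcodes over 1% of other lineages were left out. Cmss1, a nucleolar protein gene, did not move in the same way, with 40.7 and 29.9 in all members and 44.2 and 29.8 after the exclusion. It had a mean of 20.1 and 18.2 thinned UMIs and a highest value of 322 and 240 in single barcodes. Cdk8 (25.2 and 24.2), Lars2 (13.1 and 7.12), Gphn (7.50 and 7.07) and Gm19951 (7.04 and 7.79) were the others with the highest ratios.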
